A study of Homo sapiens with 24 samples.

Results

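The genes described here are 36 targets of hypoxia-inducible factor (HIF) and enzymes of glycolysis, chosen by name and found by symbol among the 58735 genes of each count table. They were measured by RNA-seq in HCT116, a human colorectal carcinoma cell line. All 4 lines carry OsTIR1, a plant receptor subunit placed under a doxycycline-inducible promoter: WT has no degron, UHRF1-AID and DNMT1-AID carry an auxin-inducible degron on UHRF1 or on DNMT1, and UHRF1-AID/DNMT1-AID carries it on both. Each line was sampled at day 0, labelled as before auxin, and at day 4 of auxin at 500 µM with doxycycline at 2 µg/ml, with 3 libraries in each of the 8 groups. Per the labels, auxin followed a day in doxycycline and the OsTIR1 inhibitor auxinole; whether the day 0 cells had been through that day is not stated. The study's methods state that replicates of each tagged line came from 3 separate clones. They do not say which clone a library is, nor how the WT replicates were obtained, so the spread between the WT samples may be technical. A degron removes the protein, so RNA levels of the tagged genes do not check it.

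UHRF1 recruits and activates DNMT1, the enzyme that copies DNA methylation onto newly replicated DNA. HIF is a pair of proteins, an oxygen-labile alpha subunit such as HIF1A or EPAS1 and the stable partner ARNT. In oxygen, prolyl hydroxylases of the EGLN family mark the alpha subunit for the ubiquitin ligase subunit VHL. When oxygen is low it persists and activates genes for glucose uptake, glycolysis, acid export, blood vessel growth and the removal of mitochondria. Cancer cells often keep part of this programme on in air, since glycolysis also answers to growth signals and nutrients. HIF binds DNA at the letters ACGTG or GCGTG, both of which hold a CpG, the site of DNA methylation. Differences in RNA cannot tell a change in all cells from one in some of them.

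The 24 libraries held between 15824804 and 25073821 counts on genes. The file headers name 2 alignment folders: the first holds the 12 libraries of day 0 with 3 of UHRF1-AID at day 4, and the second holds the other 9 day 4 libraries, which alone have counts on ERCC spike-in sequences (0.891% to 1.65%). Day 4 against day 0 in WT, DNMT1-AID and UHRF1-AID/DNMT1-AID, and UHRF1-AID against WT at day 4, therefore cross the folders, and the folder and the group cannot be told apart there. Day 4 against day 0 in UHRF1-AID, every comparison at day 0, and DNMT1-AID and UHRF1-AID/DNMT1-AID against WT at day 4 lie within a folder. In 3 day 0 libraries (WT replicate 3 and DNMT1-AID replicates 1 and 2) counts fell with gene length relative to the day 0 mean (Spearman's rho between -0.27 and -0.232 over 15699 genes), against -0.0626 to 0.291 in the other 9. Relative to the day 4 mean, rho ran from -0.191 to 0.271 over the 12 day 4 libraries. It was lowest in UHRF1-AID/DNMT1-AID, at -0.156, -0.191 and -0.175, so counts fell with length in that whole group. Fits below without libraries whose counts fell with length leave out only the day 0 ones. The epithelial markers KRT8, KRT18, KRT19, EPCAM, CDH1, CLDN3 and CLDN4 had group means of at least 38.6 CPM (counts scaled to library size), while the enterocyte marker VIL1 reached 0.202 CPM at most. Of 8 markers of leukocytes, endothelium and fibroblasts, 7 had group means of at most 0.907 CPM, and the summed level of the 8 ran from 1.56 to 6.81 CPM at day 0 and from 3.38 to 20.8 CPM at day 4, most of it from COL1A1 (group means 2.52 to 17.3 CPM).

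A call needed a log2 fold change over 1 in size and an adjusted p under 0.05 in the quasi-likelihood test of edgeR (Benjamini-Hochberg, over all genes tested). These are the thresholds of the study's methods, while the legends of its RNA-seq figures give a q-value under 0.01. Levels are CPM scaled by TMM over the 24 libraries, and errors of log2 fold changes are standard errors. Of the 36 genes, 15 were called in at least 1 of 13 comparisons, and only PFKP, a phosphofructokinase, had an adjusted p of at least 0.05 in all of them. Per kb of exon, mean levels in WT at day 0 ran from 0.0741 ± 0.0392 CPM per kb (SD, n = 3) for CA9 to 1792 ± 211 for GAPDH. GAPDH was followed by ENO1 (956 ± 181), TPI1 (545 ± 101), PKM (419 ± 65.5), LDHA (327 ± 79.6), PGAM1 (321 ± 81.2) and PGK1 (206 ± 54.8), all enzymes of the lower pathway or its triose step. The next was the stress gene DDIT4 (149.9 ± 27.0). From TPI1 down to DDIT4 the ranges of mean ± SD of neighbours overlapped, while those of GAPDH, ENO1 and TPI1 did not. In the same libraries the glucose transporter SLC2A1 stood at 67.7 ± 11.4 and SLC2A3 at 2.00 ± 0.209.

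Some of these counts can be shared with other genes, since neither strand use nor the handling of reads with several alignments is stated. ALDOA, an aldolase, shares 53.5% of its exon length with 2 other annotated genes and stood at 5.99 ± 0.548 CPM per kb in WT at day 0 (SD, n = 3), so its values are uncertain. DDIT4 shares 41.2% of its exon length, CA9 38.5%, ANKRD37 35.2% and GAPDH 14.2% with a gene on the opposite strand. For GAPDH 65 numbered pseudogene symbols are in the tables, for BNIP3 44 and for PGAM1 13.

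The promoters of the 6 genes that were called lower at day 4 in all 4 lines are shown to place the HIF-type motifs and the CpGs in them, together with that of SLC2A1, which was called higher in 2 lines. Each run is the 250 bases before a RefSeq transcript start (GRCh38.p14, printed 5′ to 3′ on the strand of the gene), and capitals mark ACGTG or GCGTG on either strand (read as CACGT or CACGC on the printed one). Of several starts of HK2 and PDK1 the window with the most CpGs is shown.
DDIT4 (chr10:72273674-72273923, plus strand): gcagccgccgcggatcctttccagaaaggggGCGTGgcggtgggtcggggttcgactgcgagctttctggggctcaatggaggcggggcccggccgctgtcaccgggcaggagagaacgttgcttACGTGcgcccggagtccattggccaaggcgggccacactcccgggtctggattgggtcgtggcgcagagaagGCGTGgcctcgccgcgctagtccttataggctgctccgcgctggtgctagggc
ANGPTL4 (chr19:8363905-8364154, plus strand): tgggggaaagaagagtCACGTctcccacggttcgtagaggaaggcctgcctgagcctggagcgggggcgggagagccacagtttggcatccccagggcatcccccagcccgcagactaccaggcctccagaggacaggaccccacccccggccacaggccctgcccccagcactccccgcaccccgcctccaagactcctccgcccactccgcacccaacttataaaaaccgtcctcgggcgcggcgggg
HK2 (chr2:74833877-74834126, plus strand): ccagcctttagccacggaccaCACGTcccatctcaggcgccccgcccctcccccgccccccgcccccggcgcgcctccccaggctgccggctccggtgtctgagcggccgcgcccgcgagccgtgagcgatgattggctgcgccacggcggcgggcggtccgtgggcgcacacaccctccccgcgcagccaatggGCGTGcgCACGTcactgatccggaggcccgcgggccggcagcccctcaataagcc
PDK1 (chr2:172555840-172556089, plus strand): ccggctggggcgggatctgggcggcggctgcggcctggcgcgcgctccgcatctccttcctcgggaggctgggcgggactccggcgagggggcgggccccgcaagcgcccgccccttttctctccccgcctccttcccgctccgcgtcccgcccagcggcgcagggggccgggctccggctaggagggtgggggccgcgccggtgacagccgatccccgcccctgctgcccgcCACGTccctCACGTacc
PFKFB4 (chr3:48556804-48557053, minus strand): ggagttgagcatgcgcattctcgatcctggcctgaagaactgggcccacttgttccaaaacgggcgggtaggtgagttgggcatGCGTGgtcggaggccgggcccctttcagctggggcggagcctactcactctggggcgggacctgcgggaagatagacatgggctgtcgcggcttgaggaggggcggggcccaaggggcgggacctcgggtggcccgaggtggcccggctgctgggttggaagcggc
GPI (chr19:34364742-34364991, plus strand): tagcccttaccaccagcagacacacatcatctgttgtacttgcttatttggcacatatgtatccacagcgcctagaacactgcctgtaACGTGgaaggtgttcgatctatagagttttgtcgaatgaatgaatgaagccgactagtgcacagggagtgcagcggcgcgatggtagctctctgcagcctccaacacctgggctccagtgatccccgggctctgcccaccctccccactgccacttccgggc
SLC2A1 (chr1:42958869-42959118, minus strand): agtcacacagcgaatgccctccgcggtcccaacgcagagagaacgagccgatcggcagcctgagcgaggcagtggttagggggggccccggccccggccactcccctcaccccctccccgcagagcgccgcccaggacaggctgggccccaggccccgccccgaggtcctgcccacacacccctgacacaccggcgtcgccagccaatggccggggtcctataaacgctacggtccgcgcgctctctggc
The windows hold between 10 (GPI) and 34 (HK2, PDK1) CpGs. HK2 has 2 matches to ACGTG and 1 to GCGTG, PDK1 has 2 to ACGTG, DDIT4 has 1 to ACGTG and 2 to GCGTG, ANGPTL4 and GPI have 1 to ACGTG, PFKFB4 has 1 to GCGTG, and SLC2A1 has neither in these 250 bases. ACGTG is also part of CACGTG, the E-box that MYC and other factors bind. Of the 36 genes, 32 have a window in the table used; SLC2A3, VEGFA, BNIP3L and NDRG1 have none. Of their 55 windows, 61.8% hold a match to either motif, against 43.2% of all 35116 windows; for ACGTG alone the shares were 41.8% and 18.5%, and for GCGTG alone 32.7% and 32.2%. The median window of these genes held 23 CpGs and the median of all windows 11.

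In WT, several HIF targets and the glycolytic enzymes HK2 and GPI were lower after 4 days of auxin and doxycycline than at day 0. Of 35 genes tested, 10 were called lower and 0 higher, where 6.53% of all 13601 genes tested were called lower and 5.37% higher; an unadjusted p under 0.05 was reached by 3 with higher and 25 with lower values, and DESeq2 called the same counts of 10 and 0. At an adjusted p under 0.05 and any fold, 19 fell and 1 rose, against 17.8% and 17.7% of all genes. The median log2 fold change was -0.54, and that of all genes -0.03. In 31 of the 35 the 3 libraries of one day lay apart from those of the other, against 49.6% of all genes.

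The same direction was seen in the other lines. In UHRF1-AID 10 of 36 genes were called lower and 2 higher, against 9.82% and 12.1% of 14391 genes, with a median log2 fold change of -0.37 (all genes 0.02). In DNMT1-AID 10 were called lower and 0 higher, against 6.68% and 8.62% of 13850 genes, with a median of -0.50 (all genes -0.01); 4 had higher and 22 lower values at an unadjusted p under 0.05, and DESeq2 called 10 lower and 1 higher (SLC2A1). In UHRF1-AID/DNMT1-AID 8 were called lower and 2 higher, against 11.5% and 15.1% of 14698 genes, with a median of -0.47 (all genes 0.02). At any fold, 19 fell and 4 rose in UHRF1-AID, 21 fell and 2 rose in DNMT1-AID, and 21 fell and 6 rose in UHRF1-AID/DNMT1-AID, where 22.9% and 26.5%, 20.8% and 19.5%, and 32.5% and 35.2% of all genes fell and rose. The days did not overlap for 25, 25 and 28 genes in these 3 lines, against 60.2%, 54% and 71.8% of all genes. The summed counts of the 36 genes took 2.03% to 2.50% of gene counts in the day 0 libraries and 1.54% to 1.92% in the day 4 libraries, without overlap. The genes with the most counts weigh most in this sum. In WT at day 0 these were GAPDH, ENO1, PKM and LDHA (means 5342, 5045, 3591 and 2033 CPM), which were not called by day in any line.

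**Figure D1:**
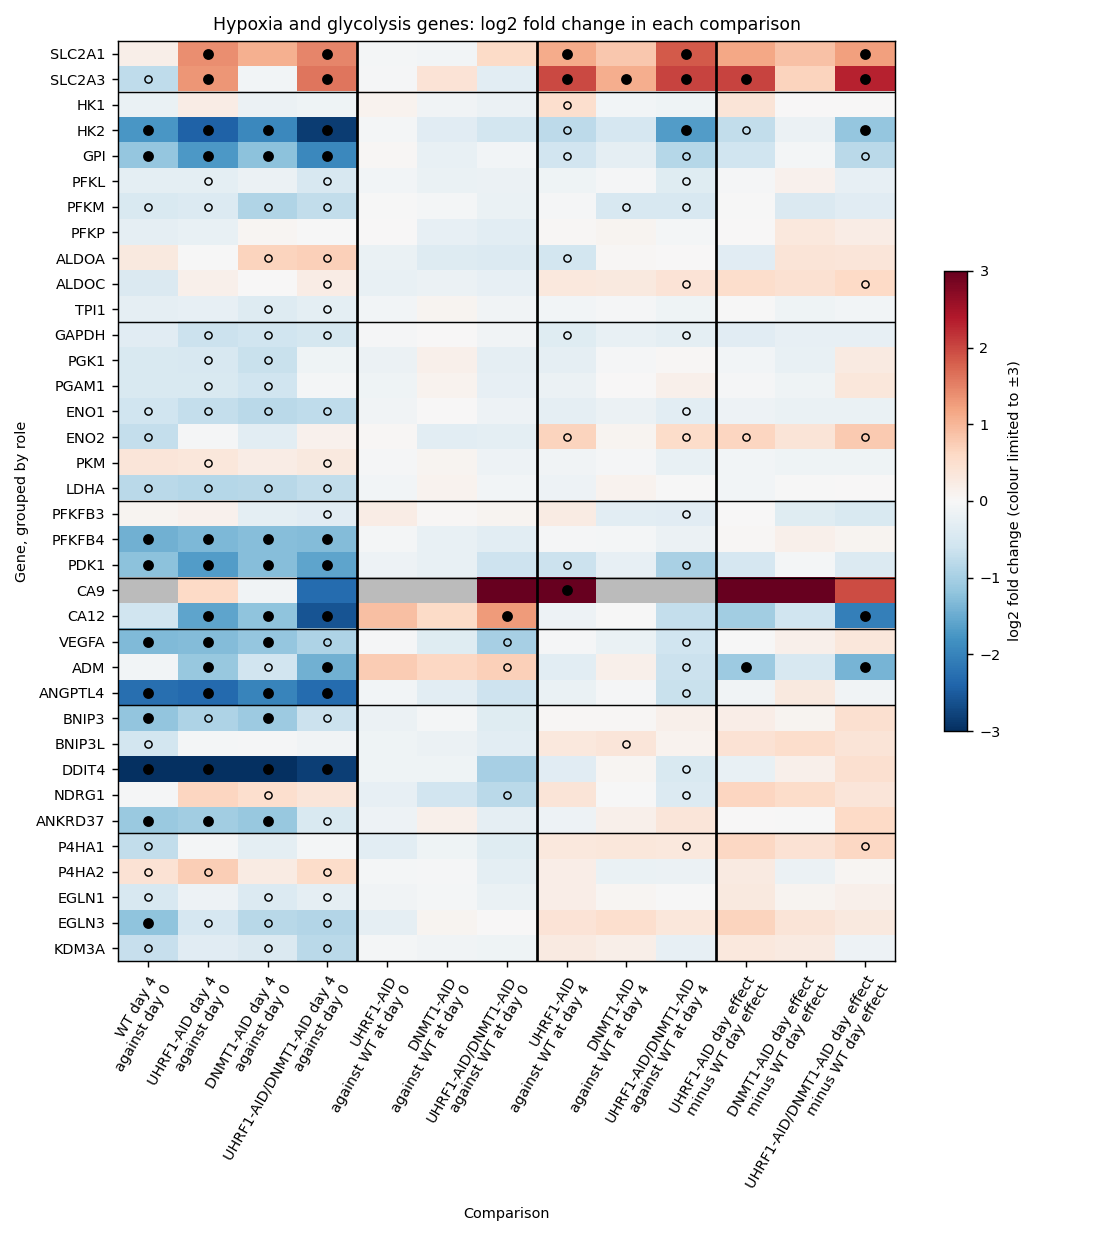
Log2 fold change (colour, limited to ±3) of each of the 36 genes (rows, grouped by role) in each of 13 comparisons (columns). Filled circles mark genes called at an adjusted p under 0.05 and over 2-fold, open circles an adjusted p under 0.05 at a smaller fold, and grey cells genes not tested. The 4 day columns at the left are mostly blue, while SLC2A1 and SLC2A3 turn red in the lines with UHRF1-AID, and SLC2A1 also in DNMT1-AID.

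Between day 0 and day 4, 6 genes were called lower in all 4 lines: HK2, GPI, PFKFB4, PDK1, ANGPTL4 and DDIT4. With 7 more that fell at smaller folds in some lines (PFKM, ENO1, LDHA, VEGFA, BNIP3, ANKRD37 and EGLN3), 13 of the 36 had an adjusted p under 0.05 and a lower level at day 4 in every line. Each of the 6 kept its call in every line when any 1 library was left out. Only in WT was a call lost under another setting, for PDK1 and GPI, both at a log2 fold change of -0.96 after a correction for gene length.

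DDIT4 (REDD1), an inhibitor of the growth kinase mTORC1 that rises in many kinds of stress, had the largest fall of the 36 genes in WT, UHRF1-AID and DNMT1-AID and the next after HK2 in UHRF1-AID/DNMT1-AID. Its levels at day 0 were 299, 258 and 368 CPM in WT, 328, 205 and 308 in UHRF1-AID, 324, 382 and 163 in DNMT1-AID, with 201, 149.9 and 117 for UHRF1-AID/DNMT1-AID. At day 4 they were 31.8, 29.2 and 29.2 CPM in WT, 26.3, 23.7 and 21.7 in UHRF1-AID, 28.0, 33.3 and 32.0 in DNMT1-AID, with 19.6, 22.2 and 22.8 for UHRF1-AID/DNMT1-AID. Every day 0 library lay above every day 4 library. The day 4 libraries ran from 19.6 to 33.3 CPM, and those of both lines with UHRF1-AID lay below those of WT. The log2 fold changes were -3.36 ± 0.15, -3.53 ± 0.19, -3.20 ± 0.32 and -2.81 ± 0.24 in this order of lines, so that DDIT4 was 10.2-fold lower in WT and 11.5-fold lower in UHRF1-AID (edgeR adjusted p 4.7e-06 and 5.1e-06).

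ANGPTL4, a secreted inhibitor of lipoprotein lipase, fell by a like amount in each line. Its day 0 levels ran from 20.0 to 58.4 CPM and its day 4 levels from 5.01 to 12.7 CPM over the 12 libraries of each day. In WT it stood at 57.0, 39.4 and 56.4 CPM and then at 9.57, 9.63 and 12.5 CPM; in UHRF1-AID at 46.0, 39.5 and 57.0 and then at 9.26, 9.62 and 9.09. In DNMT1-AID the values were 29.8, 35.7 and 58.4 and then 9.16, 12.7 and 9.22, and in UHRF1-AID/DNMT1-AID 46.1, 34.3 and 20.0 and then 7.25, 7.47 and 5.01. No day 4 library reached the lowest day 0 library of any line. The log2 fold changes were -2.26 ± 0.19, -2.32 ± 0.16, -1.98 ± 0.27 and -2.31 ± 0.41.

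Of the 9 upper glycolytic enzymes and isoforms, HK2 and GPI were called lower in all 4 lines. HK2 is the hexokinase that traps glucose in the cell and is the inducible isoform in many cancers. It stood at 111, 97.5 and 92.8 CPM in WT at day 0 and at 26.7, 32.6 and 31.0 at day 4. In UHRF1-AID it went from 84.8, 89.7 and 117 to 18, 15.8 and 19 CPM, in DNMT1-AID from 74.4, 69.2 and 100.2 to 19.8, 26.2 and 17.4, and in UHRF1-AID/DNMT1-AID from 76.6, 75.4 and 56.5 to 9.03, 9.43 and 9.48. All day 0 libraries lay above all day 4 libraries, and the 3 UHRF1-AID/DNMT1-AID libraries at day 4 were the lowest of the 24. The log2 fold changes were -1.74 ± 0.13 in WT, -2.44 ± 0.15 in UHRF1-AID, -1.92 ± 0.19 in DNMT1-AID, with -2.86 ± 0.12 for UHRF1-AID/DNMT1-AID.

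GPI converts glucose 6-phosphate to fructose 6-phosphate. Its levels at day 0 were 1011, 921 and 861 CPM in WT, 915, 931 and 1008 in UHRF1-AID, 728, 768 and 969 in DNMT1-AID, with 885, 959.5 and 828 for UHRF1-AID/DNMT1-AID. At day 4 they were 398, 441 and 404 CPM in WT, 294, 238 and 314 in UHRF1-AID, 328, 356 and 349 in DNMT1-AID, with 208, 221 and 248 for UHRF1-AID/DNMT1-AID. The days did not overlap in any line, and the log2 fold changes were -1.16 ± 0.12, -1.73 ± 0.12, -1.23 ± 0.14 and -1.94 ± 0.09.

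The remaining 7 upper pathway genes were not called in any line by day. The ubiquitous hexokinase HK1 had log2 fold changes between -0.20 and 0.23 and the platelet phosphofructokinase PFKP between -0.27 and 0.05, none with an adjusted p under 0.05. The muscle phosphofructokinase PFKM fell at an adjusted p under 0.05 in all 4 lines (log2 fold changes -0.45, -0.41, -0.89 and -0.73), and the liver form PFKL in UHRF1-AID (-0.30) and UHRF1-AID/DNMT1-AID (-0.49). The triose phosphate isomerase TPI1 fell in DNMT1-AID (-0.39) and UHRF1-AID/DNMT1-AID (-0.30). ALDOA rose in DNMT1-AID (0.68) and UHRF1-AID/DNMT1-AID (0.71), with the uncertainty of its shared exons, and ALDOC in UHRF1-AID/DNMT1-AID (0.23).

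Among the 7 lower pathway genes, 0 were called in any line by edgeR or DESeq2 and 2 fell in every line at smaller folds. ENO1, the main enolase, had log2 fold changes of -0.61, -0.71, -0.82 and -0.76, and LDHA, which turns pyruvate into lactate, of -0.81, -0.85, -0.83 and -0.74. At an adjusted p under 0.05, 3 of the 7 fell in WT, 5 in UHRF1-AID, 5 in DNMT1-AID, with 3 for UHRF1-AID/DNMT1-AID. GAPDH fell in the 3 tagged lines (-0.63, -0.59 and -0.52), with -0.33 in WT. PGK1 and PGAM1, the steps that follow GAPDH, fell in UHRF1-AID (-0.49 and -0.46) and DNMT1-AID (-0.67 and -0.59). PKM, the pyruvate kinase gene, rose in UHRF1-AID (0.33) and UHRF1-AID/DNMT1-AID (0.29) and had values of 0.36 in WT and 0.23 in DNMT1-AID. ENO2, the neuronal enolase and a HIF target, fell in WT (-0.72) and had values of -0.04, -0.33 and 0.12 in the tagged lines.

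Of the 3 regulators of flux, PFKFB4 and PDK1 were called lower in all lines and PFKFB3 was not. PFKFB3 and PFKFB4 make fructose 2,6-bisphosphate, the activator of phosphofructokinase. PFKFB4 stood at 58.9, 47.2 and 67.1 CPM in WT at day 0 and at 23.6, 20.3 and 20.2 at day 4. In UHRF1-AID the values were 48.2, 50.7 and 65.9 and then 21.0, 24.2 and 17.9, in DNMT1-AID 48.0, 50.9 and 52.2 and then 21.1, 18.5 and 21.8, and in UHRF1-AID/DNMT1-AID 51.4, 47.1 and 42.5 and then 20.7, 19 and 16.3. All 12 day 0 libraries lay above all 12 day 4 libraries, with log2 fold changes of -1.43 ± 0.15, -1.36 ± 0.17, -1.28 ± 0.13 and -1.29 ± 0.11. PFKFB3 had log2 fold changes of 0.08, 0.14, -0.29 and -0.33, the last with an adjusted p under 0.05 in edgeR's test.

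PDK1 is the kinase that keeps pyruvate out of the mitochondrion by inhibiting pyruvate dehydrogenase. It went from 32.5, 32.3 and 44.8 to 17.7, 13.3 and 15.9 CPM in WT and from 31.4, 28.6 and 37.4 to 10.2, 9.73 and 10.2 CPM in UHRF1-AID. In DNMT1-AID it went from 34.8, 34.8 and 27.3 to 13.1, 11.3 and 14.8 CPM, and in UHRF1-AID/DNMT1-AID from 26.5, 22.6 and 23.0 to 8.35, 7.72 and 7.39 CPM. The groups did not overlap in any line, and the log2 fold changes were -1.22 ± 0.17, -1.67 ± 0.15, -1.28 ± 0.17 and -1.58 ± 0.12.

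**Figure D2:**
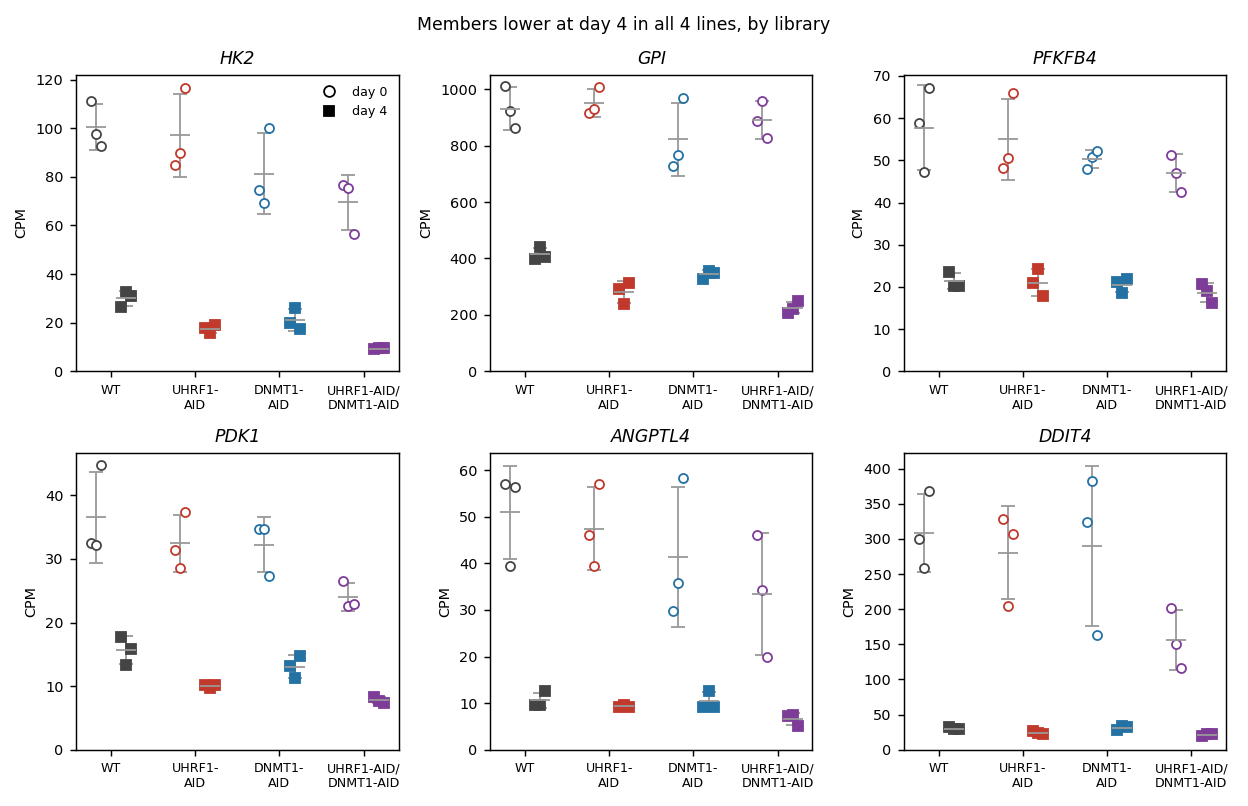
CPM (vertical axis, from 0) of the 6 genes called lower at day 4 in all 4 lines, in each library (open circles day 0, filled squares day 4; horizontal marks and bars are the mean ± SD of 3 libraries). In every panel and line the day 4 squares lie below the day 0 circles, and for HK2 the UHRF1-AID/DNMT1-AID squares, 9.03 to 9.48 CPM, are the lowest.

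Of the other secreted factors, VEGFA fell in every line and ADM in the tagged lines. VEGFA, the main signal for new blood vessels, went from 89.3, 87.7 and 98.4 to 39.2, 38.3 and 32.4 CPM in WT and from 120.0, 56.5 and 92.3 to 40.5, 36.2 and 31.2 in UHRF1-AID. In DNMT1-AID it went from 71.9, 97.7 and 49.3 to 37.4, 28.8 and 29.5 CPM and in UHRF1-AID/DNMT1-AID from 59.7, 39.9 and 40.5 to 25.1, 23.4 and 23.3 CPM. Within each line the days did not overlap, and VEGFA was called in all but UHRF1-AID/DNMT1-AID (log2 fold changes -1.32 ± 0.11, -1.29 ± 0.25, -1.17 ± 0.24 and -0.92 ± 0.16). The DNMT1-AID call ended without DNMT1-AID day 0 replicate 2 (-0.90) and, at -0.61, without both day 0 libraries whose counts fell with length, a fit with 1 day 0 library, the lowest of its group.

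ADM encodes adrenomedullin, a vasodilator peptide. In WT it stood at 46.4, 47.6 and 60.02 CPM at day 0 and at 52.7, 43.2 and 48.4 at day 4, so the days overlapped (log2 fold change -0.09 ± 0.13). In UHRF1-AID it went from 75.6, 92.7 and 89.9 to 37.2, 40.8 and 38.3 CPM, in DNMT1-AID from 63.5, 73.0 and 104 to 53.2, 54.1 and 51.6, and in UHRF1-AID/DNMT1-AID from 85.2, 99 and 70.3 to 30.0, 35.3 and 25.8. It was called lower in UHRF1-AID (-1.13 ± 0.12, edgeR adjusted p 0.00010) and UHRF1-AID/DNMT1-AID (-1.44 ± 0.14, 3.9e-06), and had -0.58 ± 0.17 in DNMT1-AID (0.021). The day 0 libraries of the tagged lines all lay above those of WT.

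CA9 and CA12 are membrane carbonic anhydrases that help to keep the cell's pH up when glycolysis makes acid. CA12 was expressed at a low level and fell from 3.37, 3.17 and 3.15 to 1.59, 2.41 and 2.41 CPM in WT, where it was not called (-0.59 ± 0.24). In UHRF1-AID it went from 4.15, 6.60 and 7.23 to 2.44, 1.32 and 2.09 CPM, in DNMT1-AID from 5.20, 4.40 and 5.33 to 2.46, 2.48 and 1.43, and in UHRF1-AID/DNMT1-AID from 6.61, 9.93 and 7.35 to 1.84, 1.52 and 0.477. The days did not overlap in any line, and CA12 was called lower in the 3 tagged lines (-1.59 ± 0.30, -1.20 ± 0.28 and -2.60 ± 0.32). In DNMT1-AID the call ended without day 4 replicate 3 (-0.98).

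CA9, often used as the marker of HIF activity in tumours, was almost absent. It had 1, 3 and 3 counts in the WT day 0 libraries and 0 in all 3 WT day 4 libraries, so that WT was not tested by day. The tagged lines held 4, 1 and 33 counts (UHRF1-AID), 8, 3 and 38 (DNMT1-AID) and 19, 124 and 18 (UHRF1-AID/DNMT1-AID) at day 0, with 1 library far above the other two in each, and 13, 11 and 27, 14, 6 and 16, and 6, 9 and 7 at day 4. None of the 3 day differences had an adjusted p under 0.05 in edgeR's test, while CA9 was called lower in UHRF1-AID/DNMT1-AID by DESeq2, by edgeR with no filter, with a replicate block or with all 24 libraries, and without day 0 replicate 1 or 3. Without UHRF1-AID day 0 replicate 3, the library with 33 counts, CA9 was called higher by day in UHRF1-AID.

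In the stress and mitophagy group, BNIP3 and ANKRD37 fell in all 4 lines. BNIP3, a receptor that hands mitochondria to autophagy, ran from 100.5 to 178 CPM over the day 0 libraries and from 55.4 to 72.5 CPM over the day 4 libraries. It stood at 129, 112 and 178 and then at 71.1, 58.6 and 55.4 CPM in WT, at 111, 116 and 139 and then at 57.5, 71.8 and 60.2 in UHRF1-AID, at 131, 144 and 134 and then at 65.8, 58.8 and 64.5 in DNMT1-AID, and at 114, 116 and 100.5 and then at 72.5, 65.4 and 66.2 in UHRF1-AID/DNMT1-AID. It was called in WT (-1.18 ± 0.17) and DNMT1-AID (-1.09 ± 0.11), with -0.92 ± 0.13 in UHRF1-AID and -0.65 ± 0.08 in UHRF1-AID/DNMT1-AID. The WT call ended without WT day 0 replicate 3, at -0.98.

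ANKRD37, a small ankyrin repeat protein induced by HIF, went from 8.29, 8.14 and 14.6 to 5.29, 4.69 and 4.27 CPM in WT and from 8.60, 8.04 and 10.8 to 3.80, 4.97 and 4.22 in UHRF1-AID. In DNMT1-AID it went from 9.04, 13.7 and 12.4 to 6.04, 4.05 and 5.78 CPM and in UHRF1-AID/DNMT1-AID from 8.72, 8.33 and 8.61 to 6.14, 5.70 and 6.26 CPM. The days did not overlap, and it was called in all but UHRF1-AID/DNMT1-AID (-1.11 ± 0.25, -1.05 ± 0.20, -1.13 ± 0.24 and -0.46 ± 0.15). These 3 calls were lost without 1 library: WT day 0 replicate 3 (-0.80), UHRF1-AID day 0 replicate 3 (-0.94) or day 4 replicate 1 (-0.97), and DNMT1-AID day 0 replicate 2 (-0.998) or day 4 replicate 2 (-0.96). The related BNIP3L fell in WT (-0.54) and had values between -0.11 and -0.03 in the tagged lines, and NDRG1, a hypoxia-induced differentiation gene, rose in DNMT1-AID (0.50) with 0.63, 0.36 and -0.05 in UHRF1-AID, UHRF1-AID/DNMT1-AID and WT.

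Of the 5 oxygen-dependent enzymes, EGLN3 fell in all lines and was called in WT. EGLN1 and EGLN3 are the prolyl hydroxylases that mark HIF, and EGLN3 is itself a HIF target. EGLN3 went from 19.3, 14.4 and 23.1 to 8.16, 8.06 and 8.12 CPM in WT (-1.22 ± 0.19) and from 15.0, 17.8 and 14.1 to 11.9, 11.8 and 8.91 in UHRF1-AID (-0.50 ± 0.18). It went from 19.4, 19 and 23.2 to 12.2, 11.1 and 11 CPM in DNMT1-AID (-0.83 ± 0.16) and from 21.9, 21.4 and 14.5 to 9.83, 9.18 and 11.5 in UHRF1-AID/DNMT1-AID (-0.88 ± 0.16). No library of day 4 reached the day 0 range, 14.1 to 23.2 CPM. EGLN1 fell in WT (-0.48), DNMT1-AID (-0.40) and UHRF1-AID/DNMT1-AID (-0.27), and the histone demethylase KDM3A in the same lines (-0.70, -0.42 and -0.81). Of the collagen prolyl hydroxylases, P4HA1 fell in WT (-0.73), while P4HA2 rose in WT (0.44), UHRF1-AID (0.75) and UHRF1-AID/DNMT1-AID (0.55).

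**Figure D3:**
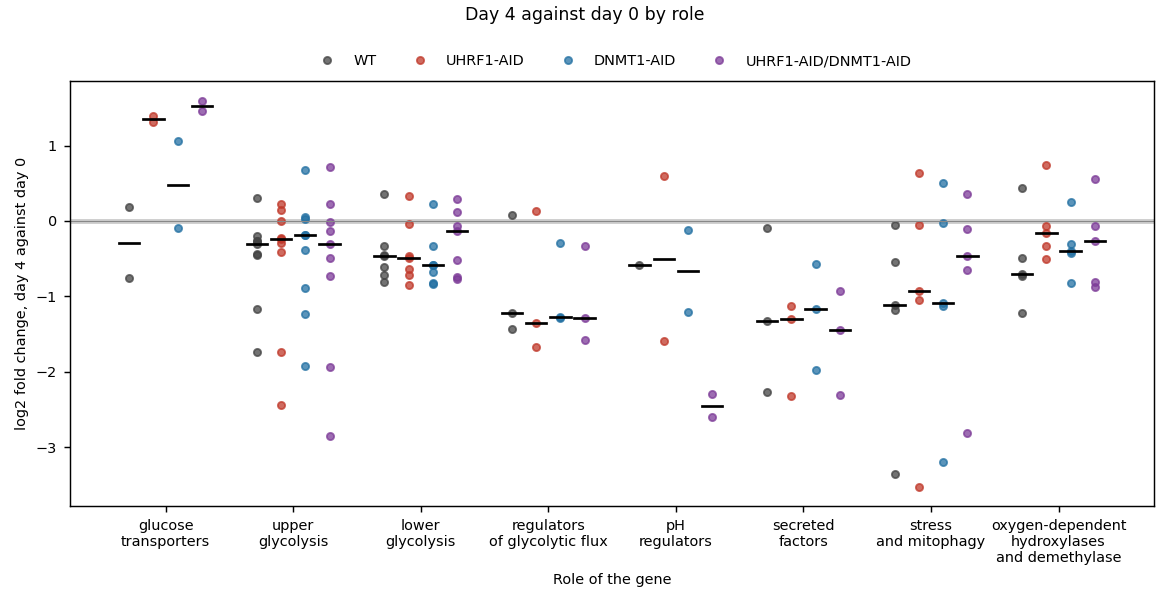
Log2 fold change of day 4 against day 0 (vertical axis) for each of the 36 genes, set out by role (horizontal axis) and line (colour); black bars are medians over the genes of a role, and the grey band spans the medians of all genes in the 4 lines (-0.03 to 0.02). Regulators of flux and secreted factors lie mostly near or below -1 in every line, and the glucose transporters lie above 1 in UHRF1-AID and UHRF1-AID/DNMT1-AID.

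Both glucose transporters were called higher by day in the lines with UHRF1-AID, and SLC2A1 had a higher mean without a call in DNMT1-AID. SLC2A1 (GLUT1), the main basal glucose transporter, stood at 312, 270.4 and 377 CPM in WT at day 0 and at 371, 352 and 361 at day 4. In UHRF1-AID it went from 229, 361 and 329.7 to 520.5, 1073 and 774 CPM, and in UHRF1-AID/DNMT1-AID from 506, 418 and 510.1 to 1395, 1022 and 1424 CPM, with no overlap in either. In DNMT1-AID it went from 234, 359 and 333 to 709, 323 and 865 CPM, with 1 day 4 library inside the day 0 range. The log2 fold changes were 1.39 ± 0.27 in UHRF1-AID (edgeR adjusted p 0.0032), 1.46 ± 0.14 in UHRF1-AID/DNMT1-AID (3.1e-06), 1.06 ± 0.39 in DNMT1-AID (0.076) and 0.18 ± 0.13 in WT (0.32). In DNMT1-AID SLC2A1 was called higher by DESeq2, in the fit of all 24 libraries and without day 4 replicate 2. Against the day effect of WT, only that of UHRF1-AID/DNMT1-AID differed at the call in the main fits.

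SLC2A3 (GLUT3), a high-affinity glucose transporter, stood lower. In WT it went from 12.5, 11 and 13.5 to 8.80, 8.55 and 4.57 CPM, a fall of less than 2-fold (-0.76 ± 0.24, edgeR adjusted p 0.036). In UHRF1-AID it went from 15.0, 10.8 and 9.97 to 29.2, 42.2 and 15.9 CPM, and in UHRF1-AID/DNMT1-AID from 10.7, 8.89 and 10.6 to 33.5, 25.3 and 29.9 CPM. The libraries of the 2 days did not overlap in either line, although the lowest UHRF1-AID library at day 4 lay close to the highest at day 0. In DNMT1-AID, with 10.6, 27.0 and 12.8 and then 19.2, 15.2 and 12.1 CPM, the days overlapped (-0.09 ± 0.37). The log2 fold changes were 1.31 ± 0.34 in UHRF1-AID (adjusted p 0.011), where the call ended without day 4 replicate 2 (0.91), and 1.60 ± 0.13 in UHRF1-AID/DNMT1-AID (3.6e-09).

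**Figure D4:**
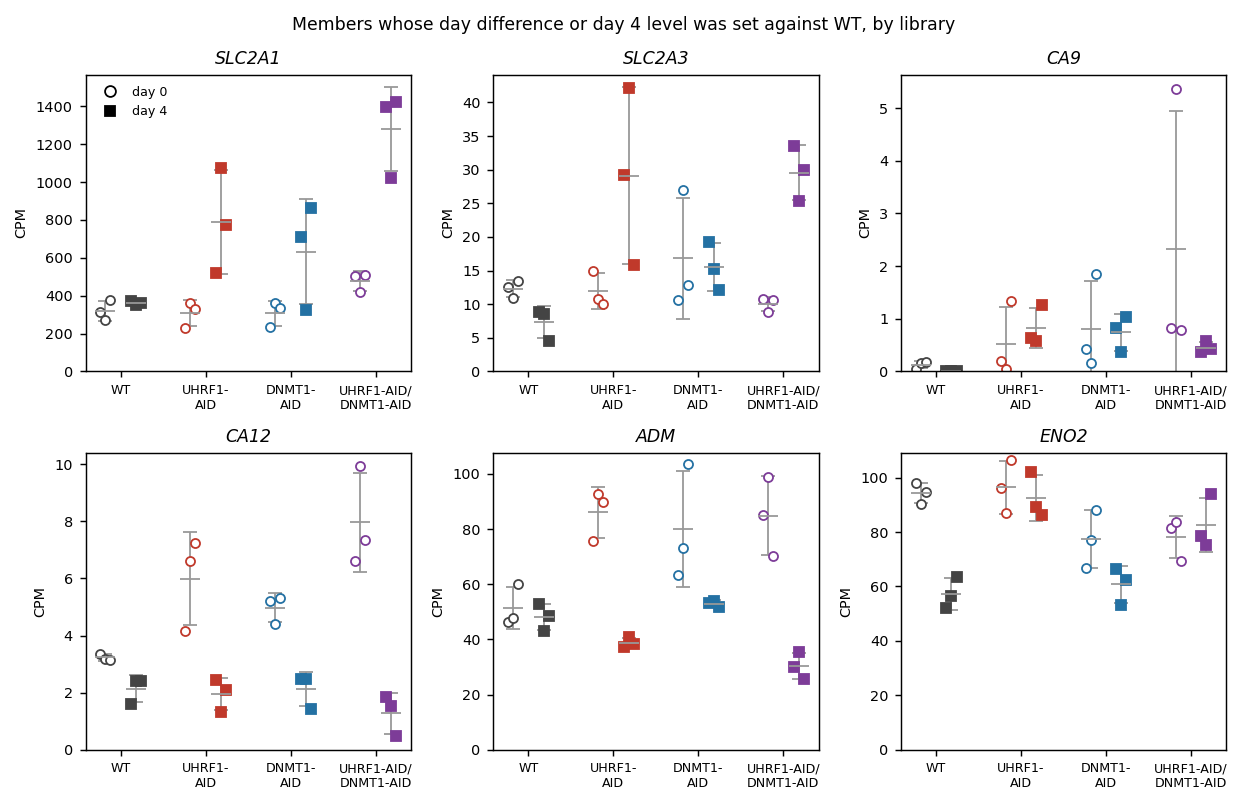
CPM (vertical axis, from 0) of SLC2A1, SLC2A3, CA9, CA12, ADM and ENO2 in each library (open circles day 0, filled squares day 4; horizontal marks and bars are the mean ± SD of 3 libraries, cut at 0). SLC2A1 and SLC2A3 are higher at day 4 in UHRF1-AID and UHRF1-AID/DNMT1-AID, ADM falls in these lines from a day 0 level above that of WT, and CA9 is at 0 in the 3 WT day 4 libraries.

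At day 0 few of these genes passed the test between a tagged line and WT, and those that did were in UHRF1-AID/DNMT1-AID. In UHRF1-AID against WT at day 0, edgeR and DESeq2 called 0 of 35 genes, with 3 at an unadjusted p under 0.05, where 0% of 13894 genes were called. In DNMT1-AID both tools called 0 of 35, with 4 at an unadjusted p under 0.05, against 0.00723% of 13833 genes lower and 0% higher; without the 3 libraries whose counts fell with length 2 were called, CA9 and ADM, both higher, but that fit holds 1 DNMT1-AID library, replicate 3, the highest of its group for both genes, and assumes that it varies like the WT libraries. In UHRF1-AID/DNMT1-AID 1 of 36 was called higher and 0 lower, against 0.656% of 14023 genes in each direction; unadjusted p values under 0.05 were reached by 4 higher and 12 lower, and DESeq2 called 2 higher (CA9 and CA12) and 0 lower. The gene called by edgeR was CA12 (1.28 ± 0.20, edgeR adjusted p 0.018), and that call ended without either WT day 0 replicate 1 or 2 or UHRF1-AID/DNMT1-AID day 0 replicate 2 or 3 (adjusted p 0.070 to 0.087). ADM was higher there by less than 2-fold (0.71), and VEGFA (-0.99) and NDRG1 (-0.81) were lower, so that 2 were higher and 2 lower at any fold, against 1.53% and 2.1% of all genes. The libraries of line and WT did not overlap for 2, 6 and 19 genes in these 3 comparisons, against 11.2%, 10.3% and 29.1% of all genes.

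At day 4 SLC2A3 was called higher than in WT in all 3 tagged lines, and SLC2A1 in both lines with UHRF1-AID. All 3 comparisons use the same WT libraries, so they are not independent of each other. In UHRF1-AID 3 of 36 genes were called higher and 0 lower, against 5.77% and 1.22% of 13958 genes; 7 were higher and 8 lower at an unadjusted p under 0.05, and DESeq2 also called 3 and 0. The 3 include CA9, which had 0 counts in WT and passed the filter on low counts through the UHRF1-AID libraries; 2 were called when each library had to hold 10 or more counts of a gene. In DNMT1-AID 1 of 35 was called higher and 0 lower, against 2.29% and 0.28% of 13582 genes; 5 were higher and 4 lower at an unadjusted p under 0.05, and DESeq2 also called 1 and 0. In UHRF1-AID/DNMT1-AID 2 of 35 were called higher and 1 lower, against 9.21% and 2.49% of 14219 genes. Median log2 fold changes were -0.03, -0.00 and -0.17, and those of all genes 0.03, 0.00 and 0.02. The libraries did not overlap for 19, 11 and 23 of them, against 37.8%, 29.6% and 49.7% of all genes.

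SLC2A1 was 2.17-fold higher than in WT in UHRF1-AID (log2 fold change 1.12 ± 0.24, edgeR adjusted p 0.016) and 3.59-fold higher in UHRF1-AID/DNMT1-AID (1.84 ± 0.12, 3.5e-10). The UHRF1-AID call ended without WT day 4 replicate 1 or 2 or UHRF1-AID day 4 replicate 3 (adjusted p 0.064, 0.060 and 0.055) and without UHRF1-AID day 4 replicate 2 (0.79), the highest library. In DNMT1-AID the value was 0.82, with no call. SLC2A3 was called in all 3 lines, at 1.99 ± 0.40, 1.09 ± 0.25 and 2.04 ± 0.22, which is 3.97-, 2.13- and 4.10-fold. Its DNMT1-AID call ended in 4 of 6 fits without 1 library (WT day 4 replicate 2 or 3, DNMT1-AID day 4 replicate 1 or 2; log2 fold changes 0.87 to 1.23), and its UHRF1-AID call without UHRF1-AID day 4 replicate 1 (adjusted p 0.078).

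HK2 differed from WT in the opposite direction to the transporters. It was called lower in UHRF1-AID/DNMT1-AID (-1.67 ± 0.14, edgeR adjusted p 7.1e-09) and fell by less than 2-fold in UHRF1-AID (-0.78 ± 0.15, adjusted p 0.0070), with -0.50 in DNMT1-AID. GPI and PDK1 were lower by less than 2-fold in UHRF1-AID (-0.57 and -0.65) and UHRF1-AID/DNMT1-AID (-0.86 and -0.98), and ENO2 was higher in both (0.68 and 0.55). At any fold, 5 of 36 were higher and 5 lower in UHRF1-AID, 2 of 35 higher and 1 lower in DNMT1-AID, while UHRF1-AID/DNMT1-AID had 5 of 35 higher and 13 lower, where 10.9% and 6.57%, 5.02% and 2.93%, and 20.4% and 17.8% of all genes were higher and lower. The 13 in UHRF1-AID/DNMT1-AID were HK2, GPI, PFKL, PFKM, GAPDH, ENO1, PFKFB3, PDK1, VEGFA, ADM, ANGPTL4, DDIT4 and NDRG1, with log2 fold changes from -1.67 to -0.29. The 3 counts of 13, 11 and 27 put CA9 in UHRF1-AID at a mean at least 4.47-fold above WT, where the 0 counts were set to a floor of 3 counts per library. The bounds were at least 4.03-fold in DNMT1-AID, with 2.45-fold for UHRF1-AID/DNMT1-AID, where CA9 did not pass the filter on low counts. With no filter edgeR called it higher in both, and in DNMT1-AID it was also called in 4 of 6 fits without 1 library. In these fits all counts of CA9 came from the tagged libraries, so the calls add no support to the bounds.

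The test of the difference itself, the day effect of a tagged line minus that of WT, called 1 gene higher and 1 lower in UHRF1-AID, against 1.81% and 0.465% of 14846 genes. They were SLC2A3 (2.02 ± 0.47, edgeR adjusted p 0.039) and ADM (-1.08 ± 0.17, 0.0062). The call of SLC2A3 was lost with a replicate block (adjusted p 0.077) and in 9 of 12 fits without 1 library. In UHRF1-AID/DNMT1-AID 2 were called higher, SLC2A1 (1.23 ± 0.20) and SLC2A3 (2.30 ± 0.28), and 3 lower, HK2 (-1.17 ± 0.19), ADM (-1.40 ± 0.20) and CA12 (-2.05 ± 0.46), against 3.46% and 1.96% of 15016 genes. The call of SLC2A1 was lost in the fit of all 24 libraries (1.28, adjusted p 0.059), and these 5 calls held in every fit without 1 library. In DNMT1-AID edgeR and DESeq2 called 0 of 36, against 0.132% of 14370 genes higher and 0.00696% lower, with 4 at an unadjusted p under 0.05. At any fold, UHRF1-AID had 2 higher and 2 lower, against 2.59% and 1.02% of all genes. DNMT1-AID had 0 in either direction, against 0.139% and 0.0139%, while UHRF1-AID/DNMT1-AID had 5 higher and 4 lower, against 6.14% and 9.12%. WT's own day effect crosses the alignment folders in all 3 of these tests. The day effects of DNMT1-AID and UHRF1-AID/DNMT1-AID cross the same folders, while that of UHRF1-AID does not. In the UHRF1-AID test the folder and the line therefore cannot be told apart.

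The RNAs of the HIF subunits differed by less than 2-fold in every comparison given here. HIF1A, whose RNA is not the step that oxygen controls, rose by less than 2-fold from day 0 to day 4 in UHRF1-AID (0.43 ± 0.15, edgeR adjusted p 0.036) and UHRF1-AID/DNMT1-AID (0.33 ± 0.07), with 0.14 in WT and 0.19 in DNMT1-AID. Its partner ARNT rose in UHRF1-AID (0.49), with 0.17, 0.14 and 0.18 in the other lines. EPAS1, the second alpha subunit, had values between -0.07 and 0.31 by day, and against WT at day 4 was lower in UHRF1-AID/DNMT1-AID (-0.43). VHL fell in UHRF1-AID (-0.77), with -0.78 ± 0.36 in WT, 0.14 in DNMT1-AID, with 0.02 for UHRF1-AID/DNMT1-AID. Of the 18 components of the HIF pathway listed, 16 were tested, and only the coactivator genes EP300 (-1.79 ± 0.38) and CREBBP (-1.53 ± 0.20) were called, both lower by day in UHRF1-AID, where 9.82% of all genes were called lower. For both the libraries of the days did not overlap in UHRF1-AID. Both are long transcripts whose counts in the 3 WT day 0 libraries, which are not part of that comparison, ran from 107 to 659 and from 136 to 745.

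Of 44 further HIF targets, 39 or 40 were tested and their medians by day were -0.47 in WT, -0.37 in UHRF1-AID, -0.40 in DNMT1-AID, with -0.41 for UHRF1-AID/DNMT1-AID. At the call 4, 5, 6 and 9 fell and 1, 2, 0 and 0 rose, against 6.53%, 9.82%, 6.68% and 11.5% of all genes lower and 5.37%, 12.1%, 8.62% and 15.1% higher, and at any fold 20, 13, 18 and 24 fell and 2, 6, 0 and 2 rose, against 17.8%, 22.9%, 20.8% and 32.5% of all genes lower and 17.7%, 26.5%, 19.5% and 35.2% higher. CAV1, the coat protein of caveolae, was called lower in all 4 lines (-1.58, -2.54, -2.07 and -2.77) and against WT at day 4 in both lines with UHRF1-AID (-1.03 in each). The transferrin receptor TFRC was called lower by day in the tagged lines (-1.37, -1.23 and -1.61), with a fall of less than 2-fold in WT (-0.60). STC2, a secreted glycoprotein, fell in all lines (-1.23, -1.93, -0.85 and -1.60), and against WT at day 4 was called lower in UHRF1-AID/DNMT1-AID (-1.54). AK4, a mitochondrial adenylate kinase, fell in all lines as well (-0.56, -1.34, -0.97 and -1.51). BHLHE41, a transcriptional repressor, was called higher in WT by day (1.76), and against WT at day 4 was called lower in all tagged lines (-2.31, -1.21 and -3.04). The growth factor PGF was called higher by day in UHRF1-AID (1.43), and against WT in UHRF1-AID at day 4 (1.30) and in UHRF1-AID/DNMT1-AID at day 4 (1.31) and already at day 0 (1.09). The binding protein IGFBP3 was called lower by day in WT (-2.43), DNMT1-AID (-1.95) and UHRF1-AID/DNMT1-AID (-2.25). It was called higher in UHRF1-AID (1.75), although the libraries of the days overlapped there. At day 4 its counts ran from 35 to 216 in UHRF1-AID and from 2 to 12 in WT (4.11 ± 0.81). In UHRF1-AID/DNMT1-AID it was called higher than in WT at day 0 (2.55) and day 4 (2.72).

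Of the other 43 genes of glycolysis and pyruvate use, 29 to 31 were tested by day. At the call 2, 6, 3 and 6 were higher and 3, 0, 3 and 1 lower in the 4 lines in the order used above, against 5.37%, 12.1%, 8.62% and 15.1% of all genes higher and 6.53%, 9.82%, 6.68% and 11.5% lower, with medians of 0.00, 0.19, 0.02 and 0.25. The transporter SLC2A12 was called higher in all 4 lines (1.24, 1.40, 1.89 and 1.92), as was LDHD, the mitochondrial D-lactate dehydrogenase (1.15, 2.05, 1.30 and 1.12), which was also called higher in UHRF1-AID against WT at day 4 (1.08). SLC2A8, another transporter, rose in all lines and was called in UHRF1-AID (1.12) and UHRF1-AID/DNMT1-AID (1.35). The muscle enolase ENO3 was called lower in WT (-1.25) and DNMT1-AID (-1.32), and PCK2, a mitochondrial enzyme that makes phosphoenolpyruvate, in WT (-1.25) and in UHRF1-AID/DNMT1-AID against WT at day 0 (-1.38). PDHA1, the catalytic subunit of pyruvate dehydrogenase that PDK1 inhibits, fell in all lines (-0.77, -0.53, -1.28 and -1.34), as did LDHB, the heart-type lactate dehydrogenase (-0.54, -0.95, -1.11 and -0.89).

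TXNIP, an arrestin that takes GLUT1 off the cell surface and so limits glucose uptake, belongs to that list. It had 0 counts in 10 of the 12 day 0 libraries, 2 in WT replicate 3 and 9 in UHRF1-AID/DNMT1-AID replicate 3, and 0 in the 3 WT day 4 libraries. At day 4 it had 105, 182 and 211 counts in UHRF1-AID, 25, 35 and 16 in DNMT1-AID, with 313, 247 and 217 for UHRF1-AID/DNMT1-AID. All 9 day 4 libraries of the tagged lines lay above all other libraries. Against a floor of 3 counts per library in WT at day 4, its mean was at least 44.4-fold higher in UHRF1-AID, 8.37-fold in DNMT1-AID, with 86.5-fold for UHRF1-AID/DNMT1-AID. It was called by edgeR in each. With 0 counts in WT at day 4, TXNIP passed the filter on low counts through the tagged libraries alone, so these calls are no further support.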

How the data were processed

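Libraries of polyA RNA were made with a NEBNext Ultra RNA kit and sequenced in paired ends. Per the labels and the study's methods, the authors used Trimmomatic 0.38 for trimming, STAR 2.6.1d for alignment to hg38 and featureCounts 1.5.0-p3 for assignment to genes. The deposited values are raw counts per gene, 1 table per library. Strand use and the handling of reads with several alignments are not given in the sources used here.

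The counts were tested with edgeR 4.0.16 (R 4.3.3): filterByExpr within the libraries compared, TMM scaling, and the robust quasi-likelihood test with Benjamini-Hochberg adjustment over all genes tested. A call needed over 2-fold and an adjusted p under 0.05. The 10 comparisons of 2 groups used their 6 libraries, and the 3 tests of a difference between day effects used 12. Printed CPM were scaled over all 24 libraries. Folds against a group at 0 counts used a floor of 3 counts per library, which covers counting error only. Alternatives were DESeq2 1.42.0, other scalings and filters, a correction for gene length, a replicate block, 1 fit of all libraries, other thresholds, and leaving out libraries.

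All 36 genes were named by role, and values in every library were given for those called in any comparison. Of the pathway lists, HIF1A, EPAS1, ARNT and VHL were always named, with up to 2 called genes per list, direction and comparison that had the smallest p and replicates that did not overlap. Some genes that this rule would name are not reported here. The members and lists were chosen with earlier results of these data known. On data simulated for UHRF1-AID day 4 against day 0 (14391 genes), 93% of 200 changed genes were called. For UHRF1-AID/DNMT1-AID against WT at day 4 it was 99.5%, and for the difference between day effects in DNMT1-AID 86%. Unchanged genes called were 3, 5 and 10 in this order. Only genes with ample counts were changed, each by more than 2-fold, so smaller changes and genes with few counts were not covered. Promoter windows are from RefSeq (GRCh38.p14).

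Replicates of a pair differed by 3.71 to 64.3 times the sampling noise (chi-square per degree of freedom, 24 pairs). Replicate numbers are shared by all groups, and neither the labels nor the methods say which clone they stand for. Deviations of same-numbered libraries from their group means correlated between -0.715 and 0.317 over 10 comparisons. All 3 exceeded 0.1 only in UHRF1-AID by day (0.156 to 0.288), and there the numbers were taken to pair the libraries.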

Additional observations from a re-analysis of the deposited data

Results flagged for a closer look

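The results below stood out because the change from day 0 to day 4 differed between a tagged line and WT, by edgeR's test of that difference at an adjusted p under 0.05 and at any fold. Values are the log2 day effect of the line minus that of WT. All share the WT libraries, and the day effect of WT crosses the alignment folders. That of UHRF1-AID lies within a folder, so in its difference from WT the folder and the line cannot be told apart. The day effect of UHRF1-AID/DNMT1-AID crosses the same folders as that of WT. The part of the folders in these differences was not tested.

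In UHRF1-AID the difference was 2.02 for SLC2A3, -1.08 for ADM, -0.74 for HK2 and 0.64 for ENO2. The result for SLC2A3 was lost with a replicate block and in most fits without 1 library. ADM had group means of 86.1 CPM in UHRF1-AID and 51.4 in WT at day 0, and of 38.8 and 48.1 at day 4. Of all genes tested, 2.59% were higher and 1.02% lower by the same measure.

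In UHRF1-AID/DNMT1-AID it was 2.30 for SLC2A3, 1.23 for SLC2A1, 0.79 for ENO2, 0.62 for P4HA1 and 0.61 for ALDOC. Of all genes tested, 6.14% were higher and 9.12% lower. It was -2.05 for CA12, -1.40 for ADM, -1.17 for HK2 and -0.82 for GPI. For CA12 and ADM the tagged line stood above WT at day 0 and below it at day 4 in group means.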

How the results depend on the processing

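Of 847 values of single genes under an alternative, over 57 gene results, 810 kept their direction and side of the threshold, 37 kept only their direction and 0 reversed. Genes that an alternative did not test have no value among these. Such was CA12 by day in UHRF1-AID/DNMT1-AID, whose call was lost when every library had to hold at least 10 counts. The cause of the lost calls was not tested. Counts of called genes moved by over 1.5 times in these cases. At any fold they were 20 (WT by day), 23 (UHRF1-AID), 23 (DNMT1-AID) and 27 (UHRF1-AID/DNMT1-AID); 4 for UHRF1-AID/DNMT1-AID against WT at day 0; 10, 3 and 18 for the lines against WT at day 4; and 4 and 9 for the differences between day effects in UHRF1-AID and UHRF1-AID/DNMT1-AID. At an adjusted p under 0.01 they were 0 for UHRF1-AID/DNMT1-AID at day 0, 1 for UHRF1-AID and 0 for DNMT1-AID at day 4, and 1 for the UHRF1-AID difference. UHRF1-AID/DNMT1-AID at day 0 gave 2 with DESeq2, 2 with the length correction and 2 with all 24 libraries, and DNMT1-AID at day 4 gave 2 with no filter and 0 with all 24 libraries. An alternative chosen after seeing the data, without the 3 libraries whose counts fell with length, gave 2 for DNMT1-AID at day 0, from a fit in which 1 library is that whole group.

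With a replicate block the counts were 10, 12, 10 and 11 by day, 0, 0 and 3 at day 0, 3, 1 and 3 at day 4, and 2, 0 and 5 for the differences. In UHRF1-AID by day the numbers were taken to pair the libraries, which the main test did not use. The block called the same 12 genes there. In the UHRF1-AID difference the block shared only ADM with the unblocked fit, adding SLC2A1 and losing SLC2A3 (1.97).

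With 1 library left out, the counts ran from 8 to 10, 11 to 12, 8 to 10 and 10 to 13 by day; 0 to 0, 0 to 0 and 0 to 3 at day 0; 2 to 3, 0 to 2 and 3 to 4 at day 4; and 1 to 2, 0 to 0 and 5 to 5 for the differences. CA9, CA12 and ANKRD37 had the lowest CPM of the 36 genes, which limits the precision of their values.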
